A study of Rattus norvegicus with 16 samples.

Results

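The miR-106b-25 cluster is a group of 3 microRNAs, rno-miR-106b, rno-miR-93 and rno-miR-25, whose hairpins lie inside Mcm7, the gene of a subunit of the helicase that opens DNA for replication. Its members were taken by name from the gene column of the arrays, which gave all 3 of them among 350 miRNAs, and 6 probes, 2 a miRNA, among 938. RNA of whole hippocampus came from 16 male Sprague-Dawley rats, 1 Agilent Rat miRNA array a rat, taken 24 h after injury or control handling. The groups were naive rats, killed with no injury or sham procedure (3), rats with a sham injury (2), rats with a severe lateral fluid percussion traumatic brain injury (TBI, 3), and rats with this injury and 1 of the drugs PMI (3), JM6 (3) and E33 (2). Drug doses, routes, vehicles and the rats' ages are not given in the sources used here, nor is any genetic change named. The design text states 3 rats in each group, and 2 sham and 2 E33 arrays were analysed here.

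The cluster is a paralog of miR-17-92, a larger cluster that arose from the same ancestor. A miRNA recognises its targets mainly through its seed, the stretch from base 2 to base 8, so miRNAs with 1 seed are predicted to share most of their targets. In human and mouse cells both clusters are known for promoting proliferation and for restraining genes that stop the cell cycle or start apoptosis, among them the cell cycle inhibitor CDKN1A and the apoptosis activator BCL2L11. In mouse brain, miR-25 and its neighbours are known from neural stem and progenitor cells.

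The mature sequences are shown because the seeds split the cluster and tie each member to a part of miR-17-92. RefSeq annotation (GRCr8) held all 3 members and all 10 paralogs looked up. All 3 members are on the minus strand of chromosome 12, miR-106b at chr12:22157103-22157123, miR-93 at chr12:22156894-22156916 and miR-25 at chr12:22156652-22156673, a stretch of 472 bases within Mcm7 (chr12:22155921-22163320). The gene table used holds no exon boundaries, and in human and mouse the cluster is known to be intronic. Capitals mark the seed.
miR-106b: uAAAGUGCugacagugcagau
miR-93: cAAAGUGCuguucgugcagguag
miR-17-5p: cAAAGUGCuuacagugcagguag
miR-20a: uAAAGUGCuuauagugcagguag
miR-25: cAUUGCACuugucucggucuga
miR-92a: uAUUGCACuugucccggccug

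miR-106b and miR-93 carry the seed AAAGUGC, which 5 rat mature miRNAs in the table share, the others being miR-17-5p, miR-20a and miR-20b-5p. miR-25 carries AUUGCAC, shared by 5 as well, with miR-92a, miR-92b, miR-363 and miR-32. Over the whole mature sequence the edit distance is 3 between miR-93 and miR-17-5p, 5 between miR-106b and miR-17-5p and 4 between miR-25 and miR-92a. Other sharers of the miR-25 seed are farther from miR-25, at 6 for miR-92b, 7 for miR-363 and 8 for miR-32.

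The probes read mostly the other end of the molecule. All but the shorter miR-93 probe reach into the seed. The probes of a member differ by 1 base, which is set in capitals in the longer of the pair.
miR-106b longer probe: atctgcactgtcagcaC
miR-93 longer probe: ctacctgcacgaacaG
miR-25 longer probe: tcagaccgagacaagtgC

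The longer probes pair with bases 5 to 21 of miR-106b, 8 to 23 of miR-93 and 5 to 22 of miR-25, and each shorter probe stops 1 base earlier at the seed side. Over the stretch probed, bases were compared at the same place in both miRNAs, counted from the seed end. This count allows no gaps, unlike the edit distance, and can therefore exceed it. By this count miR-17-5p differs from miR-106b at 2 of 17 bases and miR-20a at 3. From miR-93, miR-17-5p differs at 4 of 16 bases and miR-20a at 3. miR-92a differs from miR-25 at 3 of 18. How much of a paralog binds a member's probe was not tested, so each value below is that of the probe named for the member.

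Signals are given as log2 of the background-subtracted intensity divided by the array's own 75th percentile, so that 0 is the level of a bright probe of that array. The longer probe of each pair stands for the miRNA in the tests. For all 3 members it stood well above background on 16 of 16 arrays, with intensities of 630.0 to 1317 for miR-106b, 318 to 617 for miR-93 and 422 to 865 for miR-25. Of the 10 spots of a probe, 8 to 10 were kept on an array after outliers were dropped. The kept spots varied by a median of 4.56%, 5.22% and 7.29% of their mean in that order. The arrays had 293 to 463 probes well above background each, and 0 spots were saturated. The 5 neuronal marker miRNAs, miR-124 and miR-9 among them, were well above background on all 16 arrays, and of 5 liver and muscle miRNAs miR-122, miR-133a and miR-206 were so on none. The labels number the rats as separate samples, and p-values here measure the spread between these few rats.

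The arrays were read as 2 slides of 8, each with its own scan, and the groups are split between them. Naive, TBI and PMI replicates 1 and 2 were on slide 1. Sham, JM6, E33 and PMI replicate 3 were on slide 2. All comparisons below are within a slide, because TBI against sham and JM6 or E33 against TBI cannot be told apart from the slide. In these bulk samples, fewer cells of a type and less RNA per cell cannot be told apart.

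miR-106b varied little among the arrays. On slide 1 it read -2.02, -1.73 and -1.82 in the naive rats, -1.75, -1.76 and -1.61 in the TBI rats and -1.83 and -1.66 in the PMI rats. On slide 2 it read -1.69 and -1.62 in the sham rats, -1.56, -1.77 and -1.77 with JM6, -1.72 and -1.78 with E33 and -1.59 in the PMI rat. The 16 values span 0.46 log2 units, a 1.38-fold range. Within a slide the groups of 2 or 3 arrays overlap, except that both E33 arrays lie below both sham arrays, and naive replicate 1 is the lowest of all.

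miR-93, which has the same seed, followed miR-106b from array to array. It read -2.97, -2.70 and -2.77 in the naive rats, -2.62, -2.72 and -2.62 after TBI and -2.89 and -2.61 with PMI on slide 1. On slide 2 the values were -2.74 and -2.71 in the sham rats, -2.45, -2.64 and -2.66 with JM6, -2.56 and -2.71 with E33 and -2.51 in the PMI rat. Both sham arrays are below all 5 JM6 and E33 arrays, E33 replicate 2 only just, while naive, TBI and PMI overlap.

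miR-25 differed most between the control and the injured rats of slide 1. It read -2.42, -2.47 and -2.57 in the naive rats, -2.23, -2.19 and -2.21 in the TBI rats and -2.35 and -2.22 in the PMI rats, so that all 5 injured arrays are above all 3 naive arrays. On slide 2 the order was not the same. The sham rats read -2.16 and -2.22, within the JM6 values of -2.02, -2.42 and -2.28, above the E33 values of -2.24 and -2.29, and the PMI rat read -2.08.

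**Figure D1:**
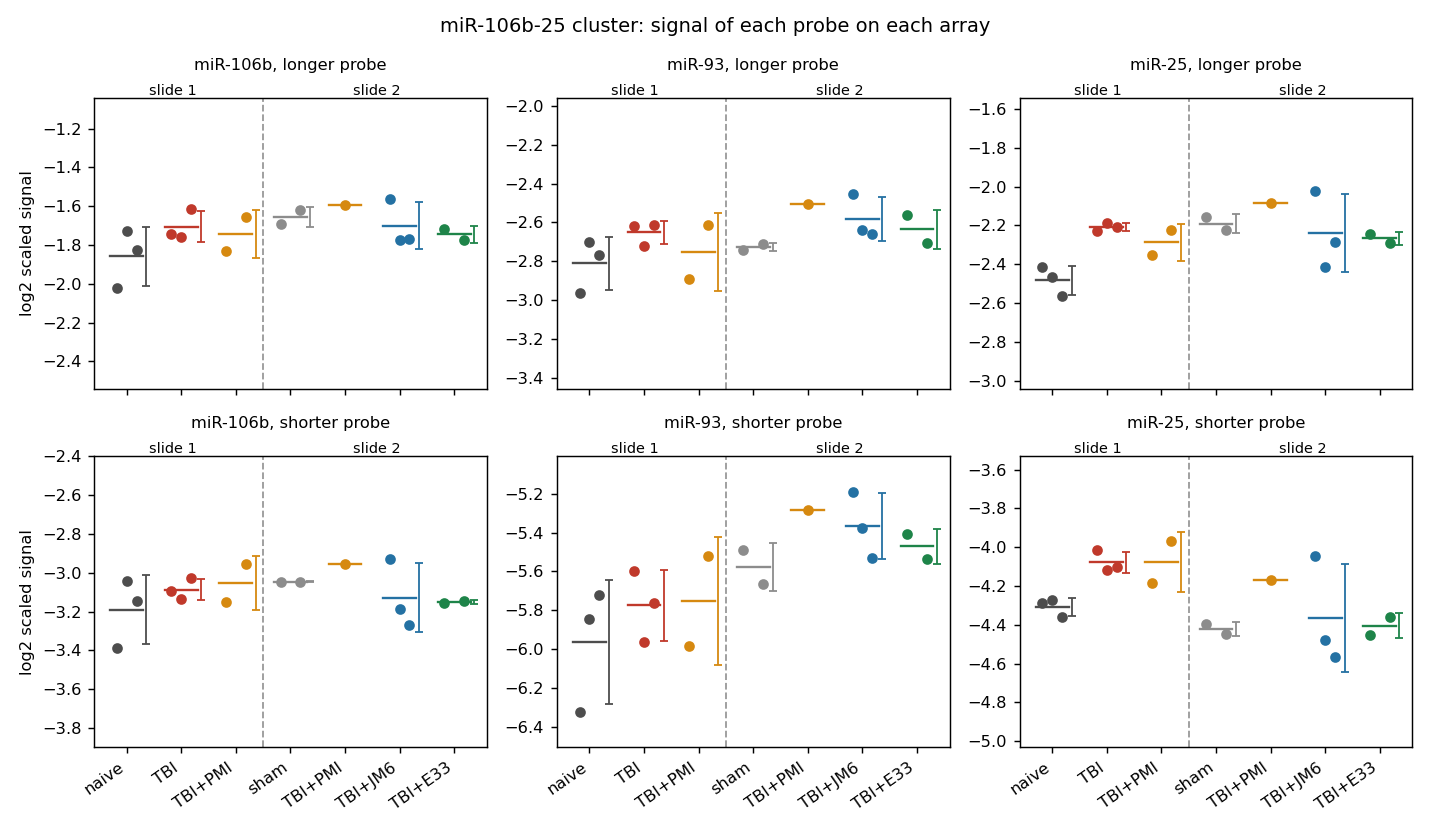
Log2 scaled signal of the longer (top) and shorter (bottom) probe of each member on every array, by group, with slide 1 left and slide 2 right of the dashed line. Points are arrays, horizontal bars group means and error bars the SD, and all panels span the same number of log2 units. The miR-25 points of the TBI and PMI arrays lie above those of the naive arrays, and the other groups of a slide mostly overlap.

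By group means on slide 1, the order was the same for each member, naive lowest, then PMI, then TBI. The means were -1.86 ± 0.15, -1.74 ± 0.12 and -1.71 ± 0.08 for miR-106b, and -2.81 ± 0.14, -2.75 ± 0.20 and -2.65 ± 0.06 for miR-93 (SD, n = 3 naive, 2 PMI and 3 TBI). For miR-25 they were -2.48 ± 0.08, -2.29 ± 0.09 and -2.21 ± 0.02. The step from naive to PMI of miR-25 is the only 1 of these neighbouring steps at which the groups do not overlap. On slide 2, miR-106b ran from E33 (-1.75 ± 0.04, n = 2) through JM6 (-1.70 ± 0.12, n = 3) to sham (-1.65 ± 0.05, n = 2), and miR-25 kept that order at -2.27 ± 0.03, -2.24 ± 0.20 and -2.19 ± 0.05. miR-93 had sham lowest at -2.73 ± 0.02, then E33 at -2.64 ± 0.10 and JM6 at -2.58 ± 0.11. All neighbours in these slide 2 orders overlap but sham and E33 for miR-93, and the single PMI array lay above each group's mean for all 3 members.

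TBI was compared with naive, 3 rats each, which differ by the surgery and handling as well as by the injury. The sham rats are on the other slide. None of the 3 members passed the adjusted threshold of 0.05 in limma, nor did any of the 169 miRNAs tested (0%). miR-25 was higher by 0.28 (SE 0.08, 95% interval 0.08 to 0.48, adjusted p = 0.171), a 1.21-fold difference with 3 of 3 TBI arrays above every naive array. Its unadjusted p was 0.0139, and 36 of 169 miRNAs (21.3%) had one under 0.05. Groups without overlap, as for miR-25, were found for 47 of the 169 (27.8%), so that 1 of 3 members stands close to the share over all miRNAs. The differences of miR-106b and miR-93 were 0.15 (SE 0.11, interval -0.10 to 0.41, adjusted p = 0.467) and 0.16 (SE 0.10, interval -0.08 to 0.40, adjusted p = 0.419). The median over all miRNAs tested was -0.05.

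The shorter probes were read on their own, in a fit over the 305 probes tested. The shorter miR-25 probe was 0.23 higher in TBI (SE 0.08, adjusted p = 0.189) and again did not overlap, at -4.29, -4.27 and -4.36 in the naive and -4.01, -4.12 and -4.10 in the TBI rats. That of miR-106b was 0.10 higher (SE 0.11, adjusted p = 0.659). The shorter miR-93 probe was well above background on 12 of 16 arrays only, and on 2 of 3 naive and 1 of 3 TBI arrays, so it could not enter this comparison. Its scaled signal ranged from -6.32 to -5.19.

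The miR-17-92 list had 7 members on the array. Of these, miR-17-5p, miR-19b and miR-92a have the same mature sequence on chromosome X as well, in the miR-106a-363 cluster. In TBI against naive 4 of them were tested, all 4 were higher, 0 passed the adjusted threshold and the median difference was 0.66. With all 16 arrays fitted and the slide as a term, 3 of the 4 passed, among 4 of 169 miRNAs that did. With normexp background correction 1 of the 4 passed. With no scaling, quantile scaling, the percentile over all probes or the replicate number as a block 0 did. In the TBI and naive arrays alone, miR-17-5p was higher by 0.76 (SE 0.16, adjusted p = 0.129), miR-20a by 0.70 (SE 0.17, adjusted p = 0.130), miR-92a by 0.62 (SE 0.14, adjusted p = 0.129) and miR-19b by 0.56 (SE 0.16, adjusted p = 0.171). The median over the 3 members of the miR-106b-25 cluster was 0.16.

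TBI replicate 1 stood apart from the other TBI arrays in miR-17-92, not in the miR-106b-25 cluster. miR-17-5p read -3.65 there against -3.15 and -3.14. miR-223 and miR-142-3p, which mark myeloid cells and leukocytes, stood apart in the same way. miR-223 read -5.07 there, not well above background, against -2.17 and -2.16, and miR-142-3p -2.89 against -1.70 and -1.62. The signals of the 4 myeloid and lymphocyte markers summed to 0.598 to 0.744 times the array's scaling percentile in the naive and 0.593 to 0.992 in the TBI rats. Of the 2 tested in limma, 1 was higher, miR-142-3p by 0.89 (SE 0.35, adjusted p = 0.218). The other, miR-150, differed by -0.20 (SE 0.09, adjusted p = 0.228), so 0 passed. The part of these cells in any difference was not tested. Without TBI replicate 1, 5 of 6 miR-17-92 members tested passed the adjusted threshold, and 4 of the 4 that were well above background on every array compared. Over all miRNAs 8 of 189 passed in that fit. With any other single array of this comparison left out, 0 miR-17-92 members passed. TBI replicate 1 stands apart by its own miR-17-92 values, so the count without it is not independent support for that list. miR-18a and miR-19a entered through the remaining TBI arrays only, being detected on 1 and 2 of 3 naive arrays. Without that array the threshold was passed by 0 of 3 members of the miR-106b-25 cluster, whose differences were then 0.17 for miR-106b, 0.14 for miR-93 and 0.29 for miR-25.

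TBI with PMI was compared with TBI on slide 1, with 2 and 3 rats. The differences were -0.04 for miR-106b (SE 0.12, interval -0.32 to 0.25), -0.10 for miR-93 (SE 0.13, interval -0.40 to 0.19) and -0.08 for miR-25 (SE 0.10, interval -0.30 to 0.14), all with an adjusted p of 0.969. Of 176 miRNAs, 0 (0%) passed, 12 (6.82%) had an unadjusted p under 0.05 and 38 (21.6%) did not overlap, and 0 of 3 members were in either set. The lower ends of these intervals reach -0.40. The signs depend on the scaling, since with arrays left unscaled all 3 differences were positive and the median of all miRNAs was 0.29. miR-17-92 had 5 members tested, of which 1 was higher, with a median of -0.07 against -0.09 over all miRNAs.

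Against naive, the same PMI arrays gave 0.12 for miR-106b (SE 0.12, adjusted p = 0.605), 0.06 for miR-93 (SE 0.13, adjusted p = 0.840) and 0.20 for miR-25 (SE 0.10, interval -0.03 to 0.42, adjusted p = 0.226). miR-25 again did not overlap with naive at either probe, and 70 of 177 miRNAs (39.5%) did not overlap here. The adjusted threshold was passed by 14 miRNAs (7.91%), all lower with PMI, and the unadjusted p was under 0.05 for 49 (27.7%), no member among them. This count was 0 with normexp, quantile scaling or the percentile over all probes, and without naive replicate 1, naive replicate 3 or PMI replicate 1. Its direction also turned, with 7 of 11 higher with the replicate number as a block and 7 of 8 in the authors' table. Naive arrays are shared by this comparison and by TBI against naive, so the miR-25 values of the pair are not independent. The 5 miR-17-92 members tested were all higher, by a median of 0.60 beside -0.11 over all miRNAs, and 0 passed. With all 16 arrays fitted 4 did, among 34 of 177 miRNAs. With the replicate number as a block 3 did, among 11 of 177. With normexp, quantile scaling, the percentile over all probes or no scaling 0 of the 5 passed.

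PMI was the only group on both slides, with 1 rat on slide 2, so slide and rat cannot be told apart in its values. On slide 2 the PMI array read 0.15 above the mean of the slide 1 PMI arrays for miR-106b, 0.25 for miR-93 and 0.21 for miR-25. The 2 PMI rats of slide 1 themselves lie apart, at -1.83 and -1.66 for miR-106b and -2.89 and -2.61 for miR-93. The gap also depends on the probe, being -0.09 at the shorter miR-25 probe. The signal of the shorter miR-25 probe was 26.2% to 29.8% of that of the longer on the 8 arrays of slide 1 and 20.6% to 24.6% on the 8 of slide 2, without overlap. For miR-106b it was 37.5% to 40.6% and 35.4% to 39.1%, with overlap. For miR-93 the share was 9.75% to 13.3% and 12.9% to 15.02%, but the shorter probe was not well above background on 4 of the 8 slide 1 arrays, those with the lowest and the highest share among them, so no order is read from it. A level of miR-25 set across the slides would thus depend on the probe.

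**Figure D2:**
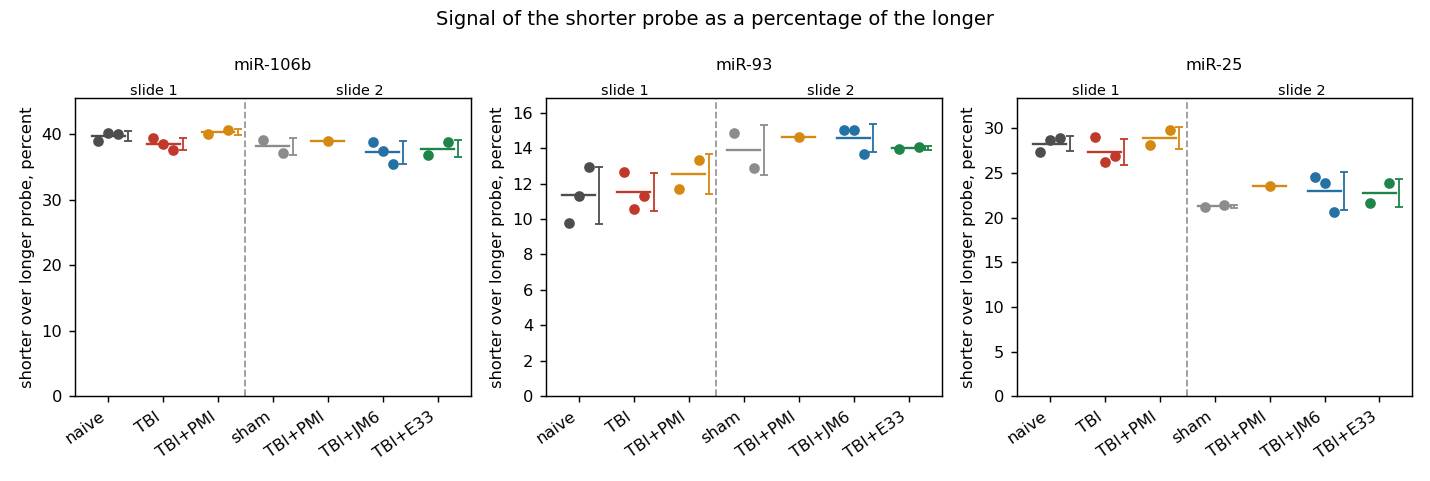
Signal of the shorter probe of each member as a percentage of the longer probe's on every array, by group, with slide 1 left and slide 2 right of the dashed line. Points are arrays, horizontal bars means and error bars the SD. For miR-25 all slide 1 arrays are above all slide 2 arrays. The shorter miR-93 probe was not well above background on 4 of the 8 slide 1 arrays.

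TBI with JM6 was compared with sham on slide 2, 3 rats with 2. miR-106b differed by -0.05 (SE 0.09, interval -0.27 to 0.17) and miR-25 by -0.05 (SE 0.12, interval -0.35 to 0.25), each with an adjusted p of 0.895. miR-93 was higher by 0.14 (SE 0.09, interval -0.08 to 0.37, adjusted p = 0.565), with 3 of 3 JM6 arrays above both sham arrays, as 70 of 225 miRNAs (31.1%) also did not overlap. None of the members was among the 12 miRNAs (5.33%) that passed the adjusted threshold, all of them higher with JM6, or the 33 (14.7%) with an unadjusted p under 0.05. Of the paralogs, 5 of 6 miR-17-92 members tested rose, with a median difference of 0.61 beside 0.02 over all miRNAs. They were miR-18a (1.15, SE 0.11, adjusted p = 0.00265), miR-19a (0.75), miR-17-5p (0.68), miR-20a (0.55) and miR-92a (0.49, SE 0.09, adjusted p = 0.027), while miR-19b differed by 0.36 (adjusted p = 0.105). miR-18a was well above background on 1 of 2 sham arrays and entered through the JM6 group, so its size rests on values near the background, and of the 5 detected on every array compared 4 rose. With normexp background correction, no scaling or all 16 arrays fitted 0 of these 6 passed, and 1 did with the percentile over all probes, with quantile scaling, or without sham replicate 1, sham replicate 2 or JM6 replicate 2. With the replicate number as a block 2 did. All 6 were higher in each of these settings. miR-92b, which carries the miR-25 seed outside any of these clusters, differed by 0.10 (SE 0.08, adjusted p = 0.647).

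E33 against sham, 2 rats each, gave -0.09 for miR-106b (SE 0.10, interval -0.33 to 0.15, adjusted p = 0.606), 0.09 for miR-93 (SE 0.10, interval -0.15 to 0.33, adjusted p = 0.606) and -0.08 for miR-25 (SE 0.13, interval -0.40 to 0.25, adjusted p = 0.751). All 3 members did not overlap between the groups, but with 2 arrays against 2 that was so for 137 of 226 miRNAs (60.6%). The adjusted threshold was passed by 9 miRNAs (3.98%) and 46 (20.4%) had an unadjusted p under 0.05, in each case with 0 of 3 members. All 6 miR-17-92 members tested were higher by a median of 0.54 beside 0.04 over all miRNAs, and 1 of them, miR-18a, passed (1.19, SE 0.12, adjusted p = 0.00694). It was well above background on 1 of 2 sham arrays and entered through the E33 group, and 0 of the 5 detected on every array compared passed. miR-17-5p, miR-19a and miR-92a were higher by 0.61, 0.65 and 0.46, each at an adjusted p of 0.0507. With arrays left unscaled, where the median of all miRNAs was -0.44, 3 of the 6 were higher and 0 passed.

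At the shorter probes on slide 2, miR-93 was 0.21 higher with JM6 (SE 0.12, adjusted p = 0.529 over 418 probes) and 0.11 higher with E33 (SE 0.13, adjusted p = 0.628 over 423 probes) than with sham, with overlap in both. miR-106b was again lower, by a difference of -0.08 with JM6 and -0.10 with E33. The shorter miR-25 probe had the opposite sign to the longer, at 0.06 and 0.02, so the direction of miR-25 on slide 2 depends on the probe.

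TBI with JM6 was also compared with TBI with E33, 3 rats with 2. miR-106b was 0.04 higher with JM6 (SE 0.09, interval -0.17 to 0.26), miR-93 0.05 (SE 0.09, interval -0.17 to 0.27) and miR-25 0.03 (SE 0.12, interval -0.27 to 0.33), with adjusted p-values of 0.965, 0.950 and 0.996. Among 230 miRNAs 0 (0%) passed, 7 (3.04%) had an unadjusted p under 0.05 and 28 (12.2%) did not overlap, and no member was in these sets.

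With the JM6 and E33 groups averaged, which makes 5 injured and treated rats against 2 sham rats, miR-106b differed by -0.07 (SE 0.08, interval -0.27 to 0.13, adjusted p = 0.659), miR-25 by -0.06 (SE 0.11, interval -0.34 to 0.21, adjusted p = 0.764) and miR-93 by 0.12 (SE 0.08, interval -0.08 to 0.32, adjusted p = 0.457). miR-93 was above both sham arrays on 5 of 5 treated arrays, as 60 of 230 miRNAs (26.1%) had no overlap. The adjusted threshold was passed by 15 miRNAs (6.52%) and 44 (19.1%) had an unadjusted p under 0.05, with no member among them. Of 6 miR-17-92 members tested 5 rose, with a median of 0.58 beside 0.03 over all miRNAs, and 4 of the 5 detected on every array compared. With normexp correction or no scaling 0 of 6 passed, and without scaling 5 of 6 were higher (median 0.22 beside -0.31 over all miRNAs). With all 16 arrays fitted 1 passed and with the replicate number as a block 2. The percentile over all probes gave 3 and quantile scaling 5. Without sham replicate 1, sham replicate 2, E33 replicate 1 or E33 replicate 2, 1 of 6 did, and 0 of 3 members of the miR-106b-25 cluster in each case. miR-223 was 3.57 higher (SE 0.31, adjusted p = 0.00267) and miR-142-3p 1.33 higher (SE 0.19, adjusted p = 0.0159) on the treated arrays, where the 4 myeloid and lymphocyte markers summed to 0.945 to 1.34 beside 0.567 to 0.684 in the sham rats. All 4 of these markers were higher and 2 passed, and their part in the miR-17-92 difference was not tested. Of the markers of the choroid plexus and ependyma 1 fell and the other tested did not pass. miR-34b differed by -1.70 (SE 0.35, adjusted p = 0.0454) and miR-204 by -1.61 (SE 0.63, adjusted p = 0.242), and the 3 markers of that list, of which 2 were tested, summed to 1.18 to 5.48 in the sham rats and 0.758 to 0.922 on the treated arrays. The higher sham sum is that of replicate 1, where miR-204 read 2.17 against -0.34 in replicate 2. Without sham replicate 1 the differences were -0.11 for miR-106b, 0.10 for miR-93 and -0.03 for miR-25, and the part of this tissue in any difference was not tested. On slide 1 that list summed to 0.647 to 2.58 in the naive, 0.687 to 1.06 in the TBI and 1.24 to 7.42 in the PMI rats. The 3 comparisons with sham share its 2 arrays.

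**Figure D3:**
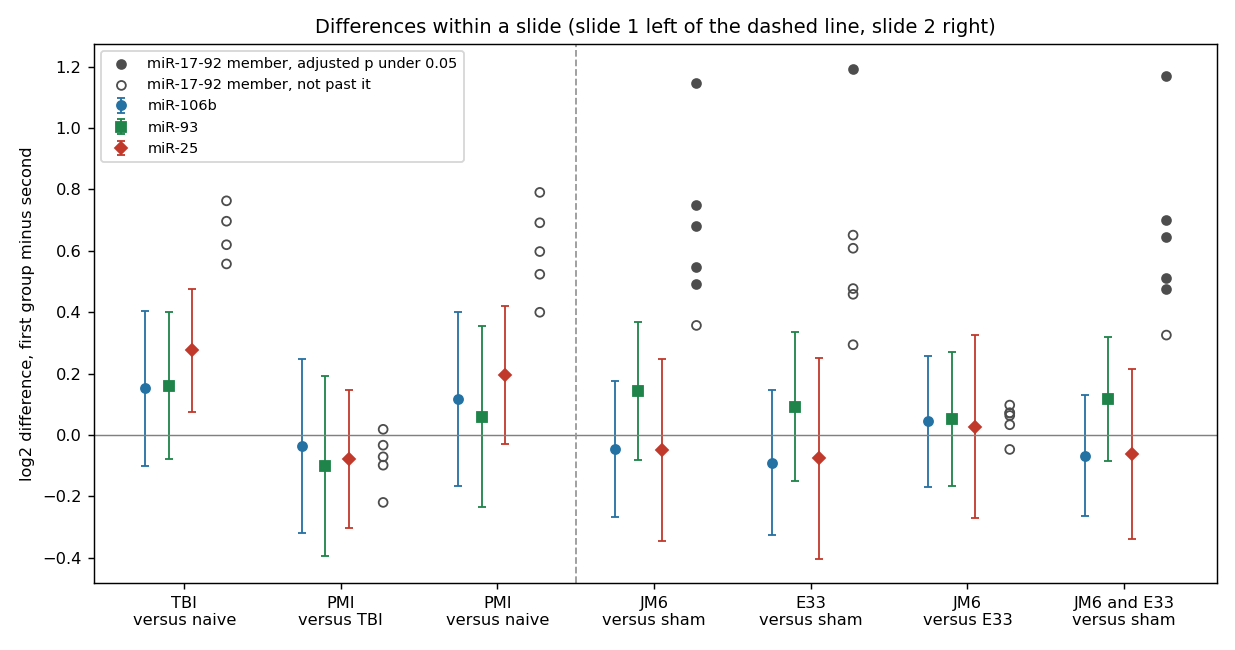
Log2 difference of each member in the 7 comparisons, with the 95% interval from limma, beside the miR-17-92 members tested (circles, filled where the adjusted p is under 0.05). Coloured points of the 3 members stay between -0.10 and 0.28, and the miR-17-92 circles lie above them in every comparison with naive or sham.

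A ratio of a pair of miRNAs within an array is not moved by any factor that scales the array, so 8 ratios were compared in the same 7 comparisons by exact permutation tests over arrays, with p-values adjusted over all 56. These ratios were chosen after the data had been seen. The design limits them, since the smallest two-sided p is 0.1 for 3 arrays against 3 or 3 against 2, 0.333 for 2 against 2 and 0.0476 for 5 against 2, and the lowest adjusted p was 0.267. A ratio shows unequal change, not that either miRNA stayed level. With these smallest p-values, adjustment over all 56 could not reach 0.05 even if every ratio separated its groups fully. That none passed was thus fixed by the design and says nothing about the ratios.

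miR-106b over miR-17-5p, which share a seed but not a cluster, was nearly constant in the control rats. The log2 ratio was 2.23, 2.22 and 2.20 in the naive rats, and 1.90, 1.39 and 1.52 after TBI. It was 1.79 and 1.49 with PMI on slide 1. The change from naive to TBI was -0.61, without overlap (exact permutation p = 0.1, adjusted p = 0.267). On slide 2 it was 2.04 and 2.10 in the sham rats against 1.34, 1.27 and 1.43 with JM6, 1.3 and 1.45 with E33 and 1.37 in the PMI rat, a change of -0.72 from sham to the 5 JM6 and E33 arrays (exact permutation p = 0.0476, adjusted p = 0.267). Every injured array, treated or not, was thus below the naive or sham arrays of its own slide, and TBI replicate 1 and PMI replicate 1 were the nearest to naive.

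The other ratios to a paralog had the same sign. miR-93 over miR-17-5p differed by -0.60 between TBI and naive and by -0.53 between JM6 and E33 and sham, and miR-106b over miR-20a by -0.54 and -0.58. For miR-93 over miR-20a the differences were -0.54 and -0.40. None of these groups overlapped, and each exact permutation p was the smallest the design allows, 0.1 for TBI and 0.0476 for JM6 and E33 (adjusted p = 0.267). miR-25 over miR-92a differed by -0.34 after TBI, with overlap, the naive ratios being 0.32, 0.06 and -0.03 and the TBI ratios 0.03, -0.39 and -0.32 (exact permutation p = 0.2, adjusted p = 0.467). With JM6 and E33 it differed from sham by -0.54, without overlap (exact permutation p = 0.0476, adjusted p = 0.267).

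**Figure D4:**
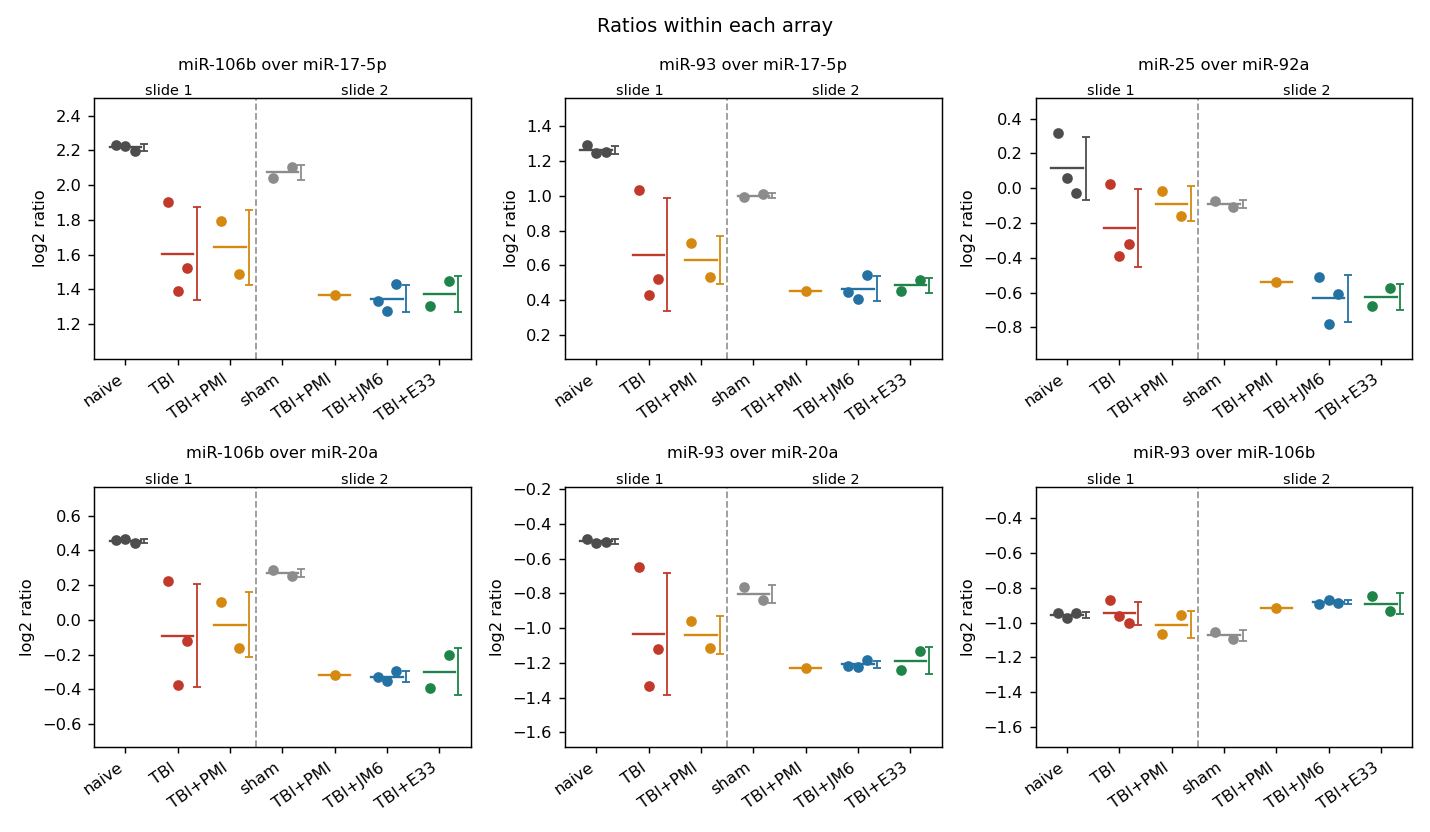
Log2 ratio of a member to a seed-sharing miR-17-92 miRNA, and of miR-93 to miR-106b, within each array, by group, with slide 1 left and slide 2 right of the dashed line. Points are arrays, horizontal bars means, error bars the SD, and all panels span the same number of log2 units. The ratios to miR-17-5p and miR-20a are lower on all injured arrays than on the naive or sham arrays of the slide. miR-93 over miR-106b differs by 0.01 between TBI and naive and by 0.19 between JM6 and E33 and sham.

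Ratios between members of the cluster were compared in the same way. miR-93 over miR-106b differed by 0.01 between TBI (-0.95 ± 0.07, SD, n = 3) and naive (-0.95 ± 0.02, SD, n = 3), with an exact permutation p of 0.9. On slide 2 it was -1.05 and -1.09 in the sham rats and between -0.93 and -0.85 on the 5 JM6 and E33 arrays, 0.19 higher (exact permutation p = 0.0476, adjusted p = 0.267). miR-25 over miR-106b was 0.12 higher after TBI (exact permutation p = 0.4) and 0.00 higher with JM6 and E33 (exact permutation p = 0.952). miR-25 over miR-93 was 0.11 higher after TBI (exact permutation p = 0.4) and differed by -0.18, without overlap, with JM6 and E33 (exact permutation p = 0.0952, adjusted p = 0.267).

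Within the groups, members of a cluster can vary together from rat to rat. After the mean of each group on each slide was taken off, the 16 values of miR-106b and miR-93 correlated at r = 0.92, those of miR-106b and miR-25 at 0.42 and those of miR-93 and miR-25 at 0.43, as a description over arrays that share their RNA, label and scaling. The pair with 1 seed thus went together more closely than either did with miR-25. Over the stretch probed, miR-93 differs from miR-106b at 4 of 17 bases and miR-106b from miR-93 at 6 of 16. Whether either binds the other's probe was not tested. Among 158 other miRNAs, the mean of the 3 members was followed most closely by miR-15b (r = 0.88), a miR-15/16 family member, then by miR-340-5p (0.78) and miR-218 (0.76), a miRNA known from motor neurons. The median r over these miRNAs was 0.32, and miR-17-5p was at place 15 with 0.67. In TBI against naive the differences of these 3 were 0.34 for miR-15b (SE 0.12, adjusted p = 0.183), -0.03 for miR-340-5p and -0.17 for miR-218.

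The passenger strands, the arms of a hairpin that are mostly discarded, were below detection for miR-25 and miR-106b. The array named no passenger strand of miR-93. miR-25* and miR-106b* have 4 probes each on the array, of 5 spots a probe, and each of these 8 probes was well above background on 0 of 16 arrays. A miR-106b* probe did reach an intensity of 134 on a naive array, and 3 of its 80 spots over all arrays were well above background. Of miR-106a-363, the other paralogous cluster, the array held miR-20b-5p, miR-20b-3p and miR-363 beside the shared miR-17-5p, miR-19b and miR-92a. miR-20b-5p, miR-20b-3p and miR-363 were well above background on 0 of 16 arrays. The shared miRNAs have the same mature sequence on chromosomes 15 and X, so their loci cannot be told apart here. miR-32, which has the miR-25 seed, was also on 0. Of the seed partners of miR-25, miR-92a was well above background on 16 arrays and miR-92b on 9, and of those of miR-106b and miR-93, miR-17-5p and miR-20a were on 16 each.

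Pooled over both slides, the gap between them included, the members' ranges were below the median range. Of the 161 miRNAs well above background on every array, whose median range was 0.65 log2 units, miR-106b had the 28th smallest range, miR-93 (0.51) the 42nd and miR-25 (0.55) the 57th.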

How the data were processed

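The deposited scanner files of 16 arrays hold spot intensity after background subtraction by Feature Extraction 9.5.3.1, with no scaling between arrays. The authors' processed table, normalized in GeneSpring GX11, holds intensities scaled by a rule not given in the sources used here, and served as an alternative. Here outlier spots were dropped and the remaining spots of a probe were averaged. Array signals were scaled by their own 75th percentile (1945 to 4042), taken over the 284 probes that passed the scanner's detection test everywhere, floored at -6.73 on the log2 scale and put on that scale. A miRNA was read by 1 probe, and tested if that probe was detected throughout at least 1 group compared. That probe was not the brightest for every miRNA. With the brightest probe throughout, 171 instead of 169 miRNAs were tested in TBI against naive, and 0 passed in either setting. Whether the differences of the paralogs depend on the probe chosen was not tested. Groups were compared within a slide with limma 3.58.1 in R 4.3.3 (lmFit, eBayes), with Benjamini-Hochberg adjusted p under 0.05. The TBI against naive fit used those 6 arrays, the PMI fits the 8 arrays of slide 1, and the sham, JM6 and E33 fits their 7. The code was tested on simulated data.

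Named miRNAs are the members at every probe, their passenger strands and paralogs, markers that moved with them, and the 3 miRNAs outside these lists most like the members' mean. Members and lists were chosen with earlier results of these data known. The number of arrays limits the precision.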

Additional observations from a re-analysis of the deposited data

How the results depend on the processing

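In all 7 comparisons and under every alternative with limma, 0 of 3 members passed the adjusted threshold. The methods' t-test (fold over 1.2 and p under 0.05) called 23 of 169 miRNAs in TBI against naive (13.6%), 8 higher and 15 lower, among them 1 member, miR-25, and 0 after Benjamini-Hochberg adjustment. In that comparison all 3 members stayed positive in every alternative, at 0.05 to 0.29 for miR-106b, 0.06 to 0.31 for miR-93 and 0.17 to 0.41 for miR-25, with adjusted p-values of 0.125 to 0.989. Over all comparisons, 365 of 402 member differences kept their sign and 37 reversed it. For PMI against TBI the reversed values were 0.34 (miR-106b), 0.28 (miR-93) and 0.30 (miR-25) without scaling, 0.054 and 0.0099 (miR-106b, miR-25) with the percentile over all probes, 0.016 (miR-106b) with quantile scaling, 0.033 and 0.0017 (miR-106b, miR-25) with the next brightest probe, and 0.063 and 0.020 (the same pair) in the authors' table. For JM6 against sham they were 0.057 and 0.11 (miR-106b, miR-25) with normexp, -0.076 (miR-93) without scaling and 0.061 (miR-25) with the next probe. For E33 against sham they were -0.41 (miR-93) without scaling, 0.011 and 0.046 (miR-106b, miR-25) with signals summed over probes, 0.018 (miR-25) with the next probe and -0.037 (miR-93) in the authors' table. For JM6 against E33 summed signals gave -0.056, -0.036 and -0.063 (miR-106b, miR-93, miR-25). For both drugs against sham miR-25 was 0.034 with normexp, 0.015 summed and 0.040 with the next probe, and miR-93 -0.24 without scaling and -0.014 in the authors' table. Leaving out 1 array at a time gave, for PMI against TBI, -0.12 to 0.051 (miR-106b) and -0.24 to 0.039 (miR-93). It gave -0.081 to 0.20 for miR-93 in PMI against naive, and -0.16 to 0.038 for miR-25 in JM6 against sham. For JM6 against E33 the ranges were -0.026 to 0.080 (miR-106b), -0.020 to 0.12 (miR-93) and -0.083 to 0.11 (miR-25). Without a change of sign, leaving out 1 array moved miR-106b in PMI against naive between 0.03 and 0.20 and miR-93 in E33 against sham between 0.02 and 0.16. The cause was not tested. The next probe of miR-93 gave no value on slide 1, where it was not detected throughout any group.

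Counts over all miRNAs moved more. TBI against naive went from 0 to 5 with summed signals, 4 in the authors' table or with all 16 arrays fitted, and 8 without TBI replicate 1. PMI against naive went from 14 to 0 with normexp, the percentile over all probes, quantile scaling or summed signals, 34 with all 16 arrays, 7, all higher, without scaling, 8 with 7 higher in the authors' table, 11 with 7 higher under the replicate block, and 0 without naive replicate 1, naive replicate 3 or PMI replicate 1. JM6 against sham went from 12 to between 0 (all 16 arrays) and 15 (without sham replicate 2), E33 from 9 to between 1 (normexp) and 18 (summed), and both drugs from 15 to between 2 (normexp) and 24 (summed). Without scaling the median of all miRNAs was -0.15 for TBI against naive, 0.17 for PMI against naive, -0.19 for JM6, -0.44 for E33 and -0.31 for both drugs against sham, and with normexp it was 0.28 for JM6 against sham. Replicate numbers are not stated to pair the rats. After group means were removed, same-numbered arrays correlated at -0.23, -0.12 and 0.12 for TBI and naive and at -0.31 and -0.26 for PMI and naive, but at 0.47 and 0.38 for PMI and TBI. On slide 2 the values lay between -0.22 and 0.10, so no rule held across the groups. With the replicate number as a block, 0 of 3 members passed in each comparison, and miR-25 in TBI against naive stayed at 0.28 (adjusted p = 0.261).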
